A study of Mus musculus with 15 samples.

Results

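B cell, plasma cell and lymph node genes were followed in inguinal white adipose tissue, the fat pad under the skin of the groin. The set holds 31 genes named for their known roles: 8 of the antigen receptor complex and B cell surface, 5 of the signalling chain inside the cell, 4 transcription regulators, 2 survival receptors, 2 lymphotoxins, 6 plasma cell genes and 4 genes of node vessels and follicles. Of these, 30 had a row in the count table of 24015 genes, and all 30 were among the 15288 genes tested; Fdcsp, a follicular dendritic cell gene, had no row under that symbol and was not analysed here. Immunoglobulin heavy and light chain genes were also not analysed here.

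All libraries came from C57BL/6 mice kept at thermoneutrality for 2 weeks and then injected into the peritoneum for 5 days. Young_Ctrl (4 libraries) and Young_CL (4) came from mice of 2 months given vehicle or CL, and Old_Ctrl (3, numbered 1, 3 and 4) and Old_CL (4) from mice of 12 months given vehicle or CL. The labels expand CL as cardiolipin, while the same letters are also the usual short name of a beta-adrenergic agonist, so the compound is called CL throughout and its identity is left unstated. The study asked how age affects the remodelling of fat by CL. Sex, the number of animals behind the libraries and the handling of the inguinal lymph node are not given in the labels; p-values therefore measure the spread between these libraries, which may be technical.

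B cells recognise antigen through a surface immunoglobulin whose signal is carried inwards by Cd79a and Cd79b, and they survive on the cytokine BAFF. An activated B cell can become a plasma cell, which shuts down much of the B cell programme and secretes antibody. Lymph nodes and smaller lymphoid clusters of fat hold B cells in follicles, and lymphocytes enter nodes through high endothelial vessels that display sugar-coated ligands for L-selectin and integrins. The inguinal fat pad normally surrounds a lymph node.

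Total counts ran from 6115542 to 51577001 per library. Adipocyte markers summed to 17788 to 72361 CPM (counts divided by the library total after its scaling by the TMM factors of edgeR), with none of the 10 at 0 in any library. Summed skeletal muscle markers stood at 2857 to 8488 CPM in 5 libraries (Young_CL 1, 2 and 3, Old_Ctrl 3 and Old_CL 3) and at 97.1 to 486 in the other 10. Old_CL 1, 2 and 4 lay closer together than any other pair of replicates, with robust SDs of log2 ratios from 0.0636 to 0.0933 against 0.116 to 0.747 elsewhere. They differed by more than sampling noise and were kept as 3. That check cannot tell separate animals from separate library preparations of 1 sample. In RefSeq gene models Cd72 overlaps Tesk1, Fcer2a overlaps Trappc5 and Tnfrsf13b overlaps Usp22; the labels do not say whether counting used strand, so the values of these 3 members are uncertain.

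The start regions of 5 members on which the results turn are shown for reference, each as the 250 bases before the annotated start (RefSeq, GRCm38.p6; 26 of the 31 members had an entry). They are Cd79a (chr7:24897247-24897496, plus strand), Ltb (chr17:35194257-35194506, plus), Igj (chr5:88527898-88528147, minus), Madcam1 (chr10:79664309-79664558, plus) and Glycam1 (chr15:103565082-103565331, minus). Capitals mark the kappa B motif.
Cd79a: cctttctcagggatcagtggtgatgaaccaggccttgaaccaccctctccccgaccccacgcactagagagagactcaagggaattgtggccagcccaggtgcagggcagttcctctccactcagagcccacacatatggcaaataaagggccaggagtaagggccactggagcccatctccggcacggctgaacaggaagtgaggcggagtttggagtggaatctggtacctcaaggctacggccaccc
Ltb: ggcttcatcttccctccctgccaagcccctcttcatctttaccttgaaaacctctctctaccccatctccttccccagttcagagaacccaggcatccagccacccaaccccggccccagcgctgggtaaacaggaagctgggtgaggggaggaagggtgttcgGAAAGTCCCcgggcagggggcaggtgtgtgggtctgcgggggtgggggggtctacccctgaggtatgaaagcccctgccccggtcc
Igj: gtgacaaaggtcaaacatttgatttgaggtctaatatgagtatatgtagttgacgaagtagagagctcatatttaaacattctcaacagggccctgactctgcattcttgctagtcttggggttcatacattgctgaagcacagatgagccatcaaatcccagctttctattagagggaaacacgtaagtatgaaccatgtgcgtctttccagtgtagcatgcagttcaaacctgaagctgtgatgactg
Madcam1: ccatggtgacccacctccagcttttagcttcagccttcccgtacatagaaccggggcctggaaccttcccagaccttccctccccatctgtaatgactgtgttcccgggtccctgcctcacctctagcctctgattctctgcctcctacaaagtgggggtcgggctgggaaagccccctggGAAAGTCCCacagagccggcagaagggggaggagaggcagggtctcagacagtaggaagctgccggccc
Glycam1: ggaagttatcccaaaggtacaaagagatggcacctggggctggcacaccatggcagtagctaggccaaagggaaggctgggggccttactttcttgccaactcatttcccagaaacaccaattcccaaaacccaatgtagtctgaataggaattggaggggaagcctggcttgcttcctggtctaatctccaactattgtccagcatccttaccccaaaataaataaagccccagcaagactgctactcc

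The letters searched, on both strands, were GGGACTTTC for kappa B, ATGCAAAT for the octamer and GAGGAAGT for PU.1, with TCCC, 2 bases of any kind and GGGA for EBF, and GAAA, 2 bases of any kind and GAAA for an interferon-type element. The kappa B letters stood before the starts of Ltb, from 86 to 78 bases upstream, and of Madcam1, from 69 to 61 bases upstream, and in 0.289% of all 32851 windows of this length. The octamer letters occurred before Blnk and in 1.6% of all windows, the EBF letters before Cd22 and in 0.779%, and the PU.1 letters before Cd72 and Cd37 and in 2.44%. The interferon-type letters occurred before Fcrla, Ebf1 and Tnfrsf17 and in 2.98%. A match describes letters and not a bound site, and none of the 5 motifs occurred in the windows of Cd79a, Igj and Glycam1.

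CL and age each went with lower levels of most B cell genes. Of the 6 plasma cell genes, 3 rose and 1 fell with age under vehicle, and 2 rose and 1 fell under CL. With CL, 24 of the 30 members fell at 2 months and 22 fell at 12 months, and none rose. With age, 22 fell under vehicle and 22 under CL, while 4 and 3 rose. The members that rose with age were Igj, Sdc1 and Ebf1 in both treatments and Tnfrsf17 under vehicle. A member is said to rise or fall where the quasi-likelihood test of edgeR gave a Benjamini-Hochberg adjusted p under 0.05 over all 15288 genes.

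Against the background, 22.1% of all genes fell with CL at 2 months and 22.2% at 12 months, and 21.7% and 23.1% rose. With age, 12.2% of all genes fell and 15.1% rose under vehicle, and 19.4% fell and 20.5% rose under CL. The 4 and 3 of 30 members that rose with age were no larger a share than the 15.1% and 20.5% of all genes. The median member changed by -0.73 and -0.70 on the log2 scale with CL at 2 and 12 months, and by -0.89 and -0.89 with age under vehicle and CL; the median of all genes tested was -0.07, -0.01, 0.03 and -0.01. The zero counts of members that rose with CL also came from limma-voom and DESeq2; at an unadjusted p under 0.05 in edgeR, 1 member (Tnfrsf17) was higher at 2 months and 0 at 12 months. The comparisons share groups of libraries, so their counts are not independent of each other.

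**Figure D1:**
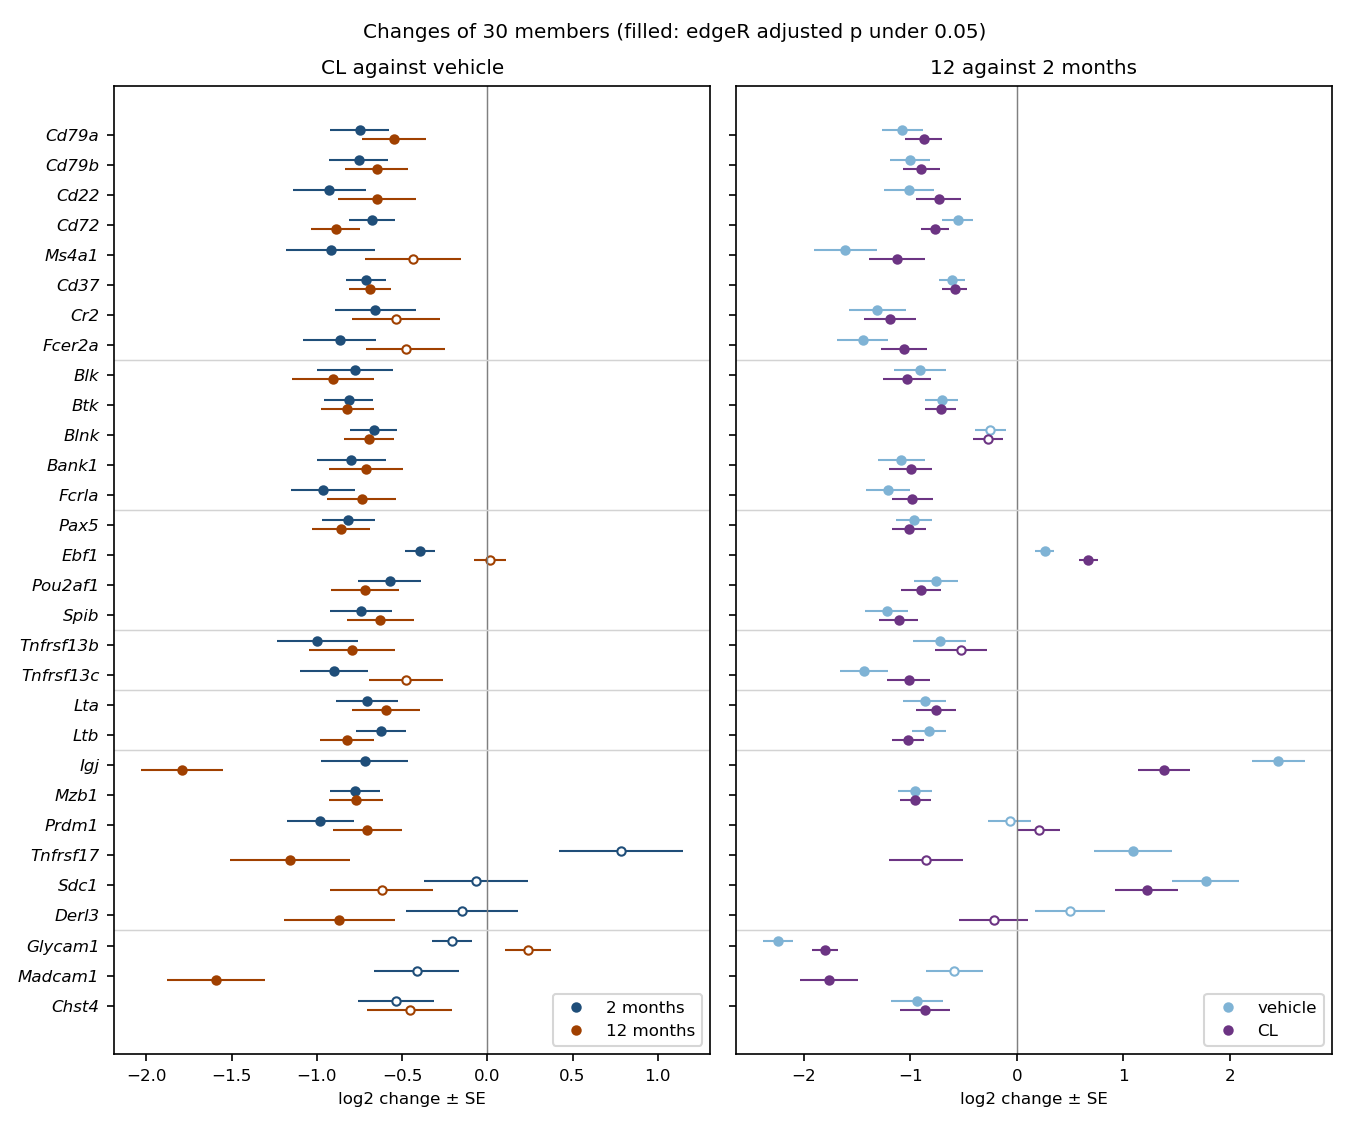
Log2 changes with their SE for the 30 members, by role, with CL against vehicle at 2 and 12 months (left) and 12 against 2 months under vehicle and CL (right); filled points passed an adjusted p under 0.05. The B cell genes lie left of 0 in all 4 comparisons except Ebf1, while Igj and Sdc1 lie far to the right with age and Glycam1 far to the left.

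Libraries that did not overlap between groups gave a related count. For 21 members every Young_CL library was below every Young_Ctrl library (16.1% of all genes), and for 15 members every Old_CL library was below every Old_Ctrl library (25.0%). With age the numbers were 19 under vehicle (13.1%) and 22 under CL (21.4%).

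All 8 surface genes fell with CL at 2 months and with age in both treatments, and 5 of 8 fell with CL at 12 months, where 2 of 8 separated the libraries. Cd79a, a signalling chain of the B cell receptor, stood at 215, 266, 269 and 260.4 CPM in Young_Ctrl and at 141, 130.1, 161 and 170.1 in Young_CL. It stood at 147, 143 and 71.3 in Old_Ctrl and at 80.2, 88.1, 75.4 and 84.5 in Old_CL. The young groups did not overlap, and neither did the ages within a treatment, but Old_Ctrl 4 lay below all 4 Old_CL libraries. CL changed Cd79a by -0.75 ± 0.18 (log2, SE; edgeR adjusted p = 0.00302) at 2 months and by -0.55 ± 0.19 (edgeR adjusted p = 0.0265) at 12 months. Age changed it by -1.08 ± 0.19 under vehicle and by -0.87 ± 0.18 under CL.

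Ms4a1, which encodes the surface protein CD20, had the largest fall with age of the surface genes under vehicle. It was at 111, 136, 206 and 195 CPM in Young_Ctrl and at 71.6, 59.2 and 30.05 in Old_Ctrl, with no overlap, a change of -1.61 ± 0.29 (edgeR adjusted p = 0.0021). Young_CL libraries were at 80.5, 60.7, 94.9 and 109, just under the lowest Young_Ctrl library, and Old_CL libraries were at 42.9, 44.4, 30.1 and 40.1, inside the range of Old_Ctrl. The change with CL was -0.92 ± 0.26 at 2 months and -0.44 ± 0.28 (edgeR adjusted p = 0.218) at 12 months. Fcer2a, the low-affinity IgE receptor, and Cr2, the complement receptor CD21, had a like pattern: with age under vehicle they fell by 1.45 and 1.31 on the log2 scale, and with CL at 12 months they did not pass the test, at -0.48 and -0.54. The call of Cr2 with CL at 2 months, -0.66, ended in 9 of 18 alternative fits. Among them were those without Young_Ctrl 3 or 4 or Young_CL 1, 2 or 3 (edgeR adjusted p from 0.055 to 0.124). It also ended by limma-voom (adjusted p = 0.062), with the replicate block (edgeR adjusted p = 0.064) and with Old_CL 1, 2 and 4 summed (0.055).

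Cd37, a tetraspanin, and Cd72, an inhibitory receptor, had smaller falls with age under vehicle, at -0.61 and -0.56, and that of Cd72 ended without Old_Ctrl 4 (edgeR adjusted p = 0.077). With CL at 12 months they were the surface genes whose Old_CL libraries all lay below the Old_Ctrl libraries, at -0.69 and -0.89. Cd79b, the partner of Cd79a, changed by -0.75 and -0.65 with CL and by -1.001 and -0.90 with age, and its call with CL at 12 months ended without Old_Ctrl 1 (edgeR adjusted p = 0.0783). Cd22, which dampens the receptor's signal, changed by -0.93 and -0.65 with CL and by -1.01 and -0.73 with age. Its call with CL at 12 months ended without Old_Ctrl 1 or 3 or Old_CL 1 or 3 (edgeR adjusted p = 0.141, 0.144, 0.0564 and 0.0842).

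Old_Ctrl 4 was the library that spread the aged vehicle group. Its 8 surface genes summed to 530.4 CPM, against 974 and 939.9 in Old_Ctrl 1 and 3 and 459.8 to 579 in Old_CL. Its adipocyte markers were the highest of its group, at 43646 CPM against 29781 and 31925 in Old_Ctrl 1 and 3. Without Old_Ctrl 4, Ms4a1, Cr2, Fcer2a and Tnfrsf13c passed the test with CL at 12 months, with changes of -0.73, -0.80, -0.78 and -0.74. Cd79a did not keep its call with CL at 12 months without Old_Ctrl 1 (edgeR adjusted p = 0.147), Old_Ctrl 3 (0.139), Old_CL 1 (0.0554) or Old_CL 3 (0.0622). At 12 months 14 members fell with CL without Old_Ctrl 1, and 14 when Old_CL 1, 2 and 4 were summed to 1 sample. Of all genes, 2711 and 2266 fell in these fits. Calls that ended with this sum included those of Bank1, Tnfrsf13b, Lta, Prdm1, Tnfrsf17 and Derl3.

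**Figure D2:**
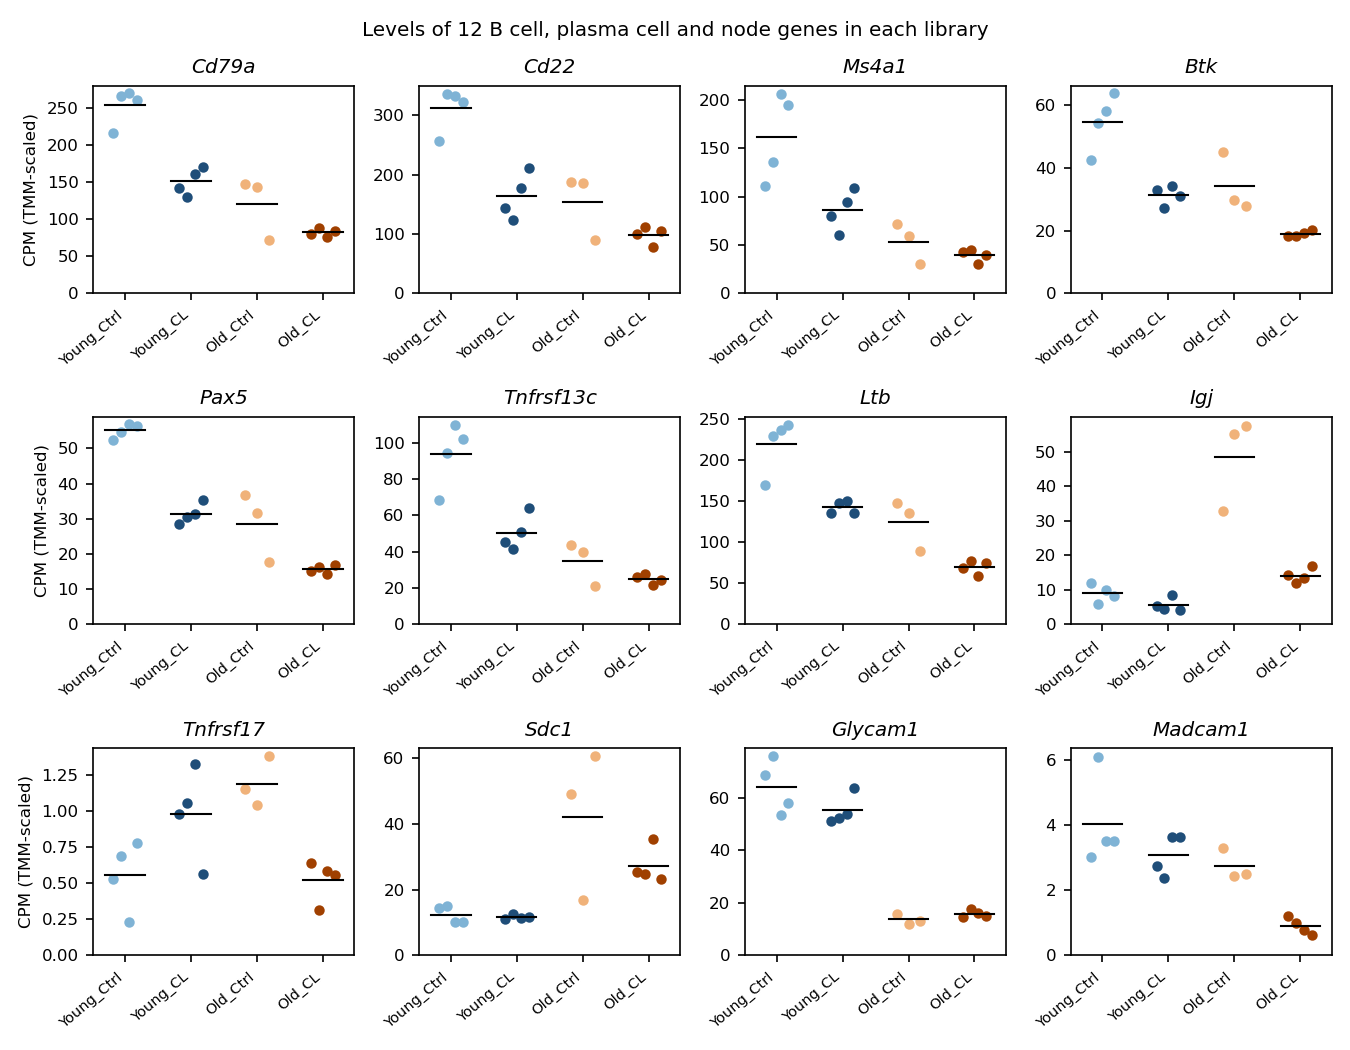
CPM of 12 members in each library, by group on a linear axis from 0, with a bar at the group mean. The means of Cd79a to Ltb are highest in Young_Ctrl and lowest in Old_CL; those of Igj and Sdc1 are highest in Old_Ctrl, and Glycam1 separates by age.

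Within the cell the signalling genes followed the surface genes. All 5 fell with CL at both ages, and 4 of 5 fell with age in each treatment. Btk, the kinase that relays the receptor's signal, was at 42.5, 54.2, 58.2 and 63.8 CPM in Young_Ctrl, 33.0, 27.1, 34.3 and 30.9 in Young_CL, 45.1, 29.7 and 27.8 in Old_Ctrl, and 18.4, 18.2, 19.3 and 20.1 in Old_CL. The treatments did not overlap at either age, and CL changed Btk by -0.81 ± 0.14 (edgeR adjusted p = 4.18e-04) and by -0.82 ± 0.16 (edgeR adjusted p = 7.22e-04). With age Btk changed by -0.71 in each treatment.

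Blk, a Src-family kinase, Bank1, a scaffold, and Fcrla, an intracellular Fc receptor-like protein, fell in all 4 comparisons, with changes between -0.71 and -1.21. With CL at 12 months the call of Blk ended without Old_Ctrl 3 (edgeR adjusted p = 0.0586) and that of Bank1 without Old_Ctrl 1 or 3 (0.0892 and 0.0667). The call of Bank1 also ended with Old_CL 1, 2 and 4 summed. Those of Blk, Bank1 and Fcrla ended without the 5 libraries high in muscle markers. Blnk, the adaptor that links the kinases to their downstream enzymes, fell with CL by 0.67 and 0.69 on the log2 scale but did not pass the test with age. Its changes with age were -0.25 ± 0.15 under vehicle and -0.27 ± 0.14 under CL (edgeR adjusted p = 0.226 and 0.132).

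Of 20 further genes of B cell receptor signalling, 17 fell with CL at 2 months and 18 at 12 months, and 12 and 17 fell with age under vehicle and CL. Their medians were -0.65, -0.78, -0.47 and -0.70 on the log2 scale. Fcgr2b, an inhibitory Fc receptor that macrophages also express, rose with age under vehicle by 0.75 and fell with CL at 12 months by 1.26. Among 19 tested genes of 20 other B cell markers, 15, 12, 13 and 18 fell in the same order of comparisons.

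Pax5, Spib and Pou2af1, regulators of B cell identity and of germinal centre function, fell in all 4 comparisons. Pax5 was at 52.4, 54.7, 56.8 and 56.5 CPM in Young_Ctrl and at 28.4, 30.6, 31.3 and 35.2 in Young_CL. At 12 months it was at 36.6, 31.5 and 17.7 in Old_Ctrl and at 15.05, 16.2, 14.4 and 16.7 in Old_CL. Treatments did not overlap at either age, and CL changed Pax5 by -0.82 ± 0.16 and -0.86 ± 0.17 (edgeR adjusted p = 7.45e-04 and 9.77e-04). Age changed it by -0.97 and -1.01. Spib, an Ets-family factor, fell most of the 3 with age, by 1.22 and 1.11, and its call with CL at 12 months ended without Old_Ctrl 1 or 3 (edgeR adjusted p = 0.103 and 0.0732). Pou2af1, a coactivator of octamer-binding factors, fell with CL by 0.57 at 2 months, a call that ended without Young_Ctrl 3 or 4 or Young_CL 1 or 2 (edgeR adjusted p = 0.067, 0.0621, 0.0668 and 0.0749). Its calls with CL at 12 months and with age under vehicle ended without Old_Ctrl 1 (edgeR adjusted p = 0.0609) and Old_Ctrl 4 (0.0776) in turn.

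Ebf1, a B lineage factor that is also expressed in adipocytes and their precursors, took another course. It was at 118, 107, 105 and 97.8 CPM in Young_Ctrl and at 77.4, 78.7, 79.2 and 90.2 in Young_CL, and fell with CL at 2 months by 0.39 ± 0.09 (log2; edgeR adjusted p = 0.00187). At 12 months it was at 129, 135 and 121 in Old_Ctrl and 134, 129.8, 118 and 138 in Old_CL, overlapping groups. With age it rose by 0.67 ± 0.09 under CL (edgeR adjusted p = 3.75e-05). Under vehicle it rose by 0.26 ± 0.09 (edgeR adjusted p = 0.0451), a call that ended in 13 of 17 alternative fits, among them those without Young_Ctrl 2, 3 or 4 or any 1 of Old_Ctrl (edgeR adjusted p from 0.0687 to 0.132). The difference of its CL effects between ages, 0.41 ± 0.13, did not pass (edgeR adjusted p = 0.0598) but did without Young_Ctrl 4, Young_CL 4 or Old_CL 3 (0.0452, 0.0258 and 0.0428). Beside it, 6 and 8 of 10 adipocyte markers rose with CL at 2 and 12 months and 2 and 5 with age under vehicle and CL; their part in the values of Ebf1 was not tested.

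Tnfrsf13c encodes the BAFF receptor, on which mature B cells depend. It was at 68.3, 94.4, 109.8 and 102 CPM in Young_Ctrl, 45.2, 41.5, 50.9 and 64.3 in Young_CL, 43.5, 40.1 and 21.3 in Old_Ctrl, and 26.0, 27.5, 21.6 and 24.7 in Old_CL. Both young groups lay above both aged groups except that Young_CL 2 was below Old_Ctrl 1. Age changed it by -1.44 ± 0.22 under vehicle (edgeR adjusted p = 8.99e-04) and by -1.02 ± 0.20 under CL, and CL changed it by -0.90 ± 0.20 at 2 months and by -0.48 ± 0.22 (edgeR adjusted p = 0.0867) at 12 months. Tnfrsf13b, the receptor TACI, fell with CL at both ages, by 0.996 and 0.79, and the second call ended without Old_Ctrl 3 (edgeR adjusted p = 0.125). The second call also ended with Old_CL 1, 2 and 4 summed (edgeR adjusted p = 0.06) and without the 5 libraries high in muscle markers. With age under vehicle Tnfrsf13b fell by 0.72, a call that ended without Young_Ctrl 2, 3 or 4 or Old_Ctrl 1 or 4 (edgeR adjusted p from 0.0528 to 0.171). Under CL its change of -0.52 passed without Young_CL 2 (edgeR adjusted p = 0.0397).

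The lymphotoxins Lta and Ltb form the trimer by which lymphocytes instruct stromal and endothelial cells to build nodes and follicles. Ltb was at 170.1, 229, 236 and 243 CPM in Young_Ctrl and at 136, 148, 150.3 and 136 in Young_CL. In Old_Ctrl it was at 148, 135 and 89.7, and in Old_CL at 68.8, 77.8, 59.1 and 74.9. Neither treatment pair overlapped. Ltb changed by -0.62 ± 0.15 and -0.82 ± 0.16 with CL (edgeR adjusted p = 0.00329 and 7.85e-04) and by -0.82 and -1.02 with age. Lta changed by -0.70 and -0.59 with CL and by -0.87 and -0.76 with age. Its call with CL at 12 months ended without Old_Ctrl 1 (edgeR adjusted p = 0.0566), Old_Ctrl 3 (0.174) or Old_CL 3 (0.0625). It also ended with the replicate block (edgeR adjusted p = 0.057) and with Old_CL 1, 2 and 4 summed (0.066).

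Of 12 partner genes of BAFF and lymphotoxin, 9 and 10 fell with CL at 2 and 12 months, and 1 and 6 with age under vehicle and CL. Map3k14 and Relb, the kinase and the transcription factor of the non-canonical NF-kappa B pathway that these receptors use, changed by -0.65 and -0.59 with CL at 2 months and by -0.80 and -1.14 at 12 months. Tnfsf13b, which encodes BAFF, changed by -0.67 and -0.83 with CL. Tnfsf13, which encodes the related cytokine APRIL, rose with age by 1.07 and 0.75.

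**Figure D3:**
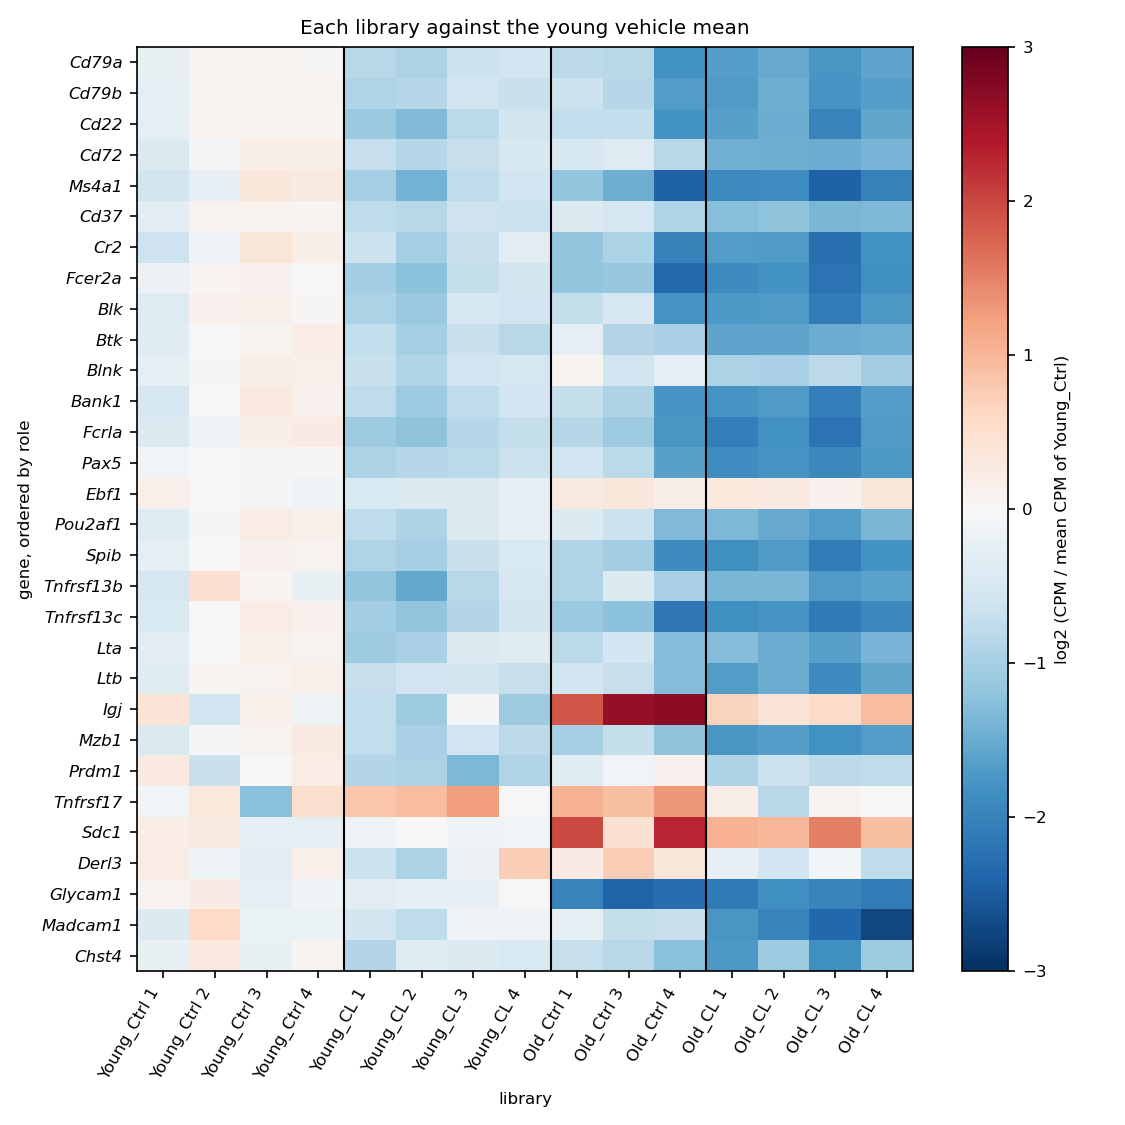
Log2 ratio of each library's CPM to the Young_Ctrl mean, for 30 members in role order; blue is lower, red is higher and black lines divide the 4 groups. Most rows darken from Young_CL and Old_Ctrl to Old_CL, Old_Ctrl 4 is darker than Old_Ctrl 1 and 3 for most B cell genes, and Igj, Sdc1 and Ebf1 stay red in the aged groups.

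The plasma cell genes did not move together with age. Igj, also named Jchain, encodes the chain that joins polymeric IgA and IgM. It was at 11.8, 5.93, 9.99 and 8.07 CPM in Young_Ctrl and at 5.37, 4.30, 8.62 and 4.28 in Young_CL. In Old_Ctrl it reached 32.7, 55.1 and 57.3, and in Old_CL 14.2, 12.0, 13.3 and 16.9. Every aged library was above every young library, and Old_Ctrl was above Old_CL without overlap. With age Igj rose by 2.46 ± 0.25 under vehicle, 5.49-fold (edgeR adjusted p = 4.82e-05), and by 1.39 ± 0.25 under CL (edgeR adjusted p = 5.51e-04).

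With CL Igj fell at 12 months by 1.79 ± 0.24, 3.46-fold (edgeR adjusted p = 6.29e-05). At 2 months it fell by 0.72 ± 0.25 (edgeR adjusted p = 0.0309), with overlapping libraries. That call ended without Young_Ctrl 1 or 3 or Young_CL 1, 2 or 4 (edgeR adjusted p from 0.0691 to 0.1003), and with the 2 groups alone (0.053). The difference between these effects was -1.07 ± 0.35 and did not pass the test (edgeR adjusted p = 0.0737, 95% interval from -1.84 to -0.30), but it passed without Young_Ctrl 1, Young_CL 4 or Old_Ctrl 1 (0.042, 0.0451 and 0.0403). Per 100 counts of Cd79a there were 2.23 to 5.49 counts of Igj in Young_Ctrl, 2.52 to 5.36 in Young_CL, 22.3, 38.6 and 80.4 in Old_Ctrl 1, 3 and 4, and 13.6 to 20.01 in Old_CL. Old_Ctrl 4 thus held the lowest Cd79a and the highest Igj of its group; this ratio was formed after the levels were seen and is given without a test.

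**Figure D4:**
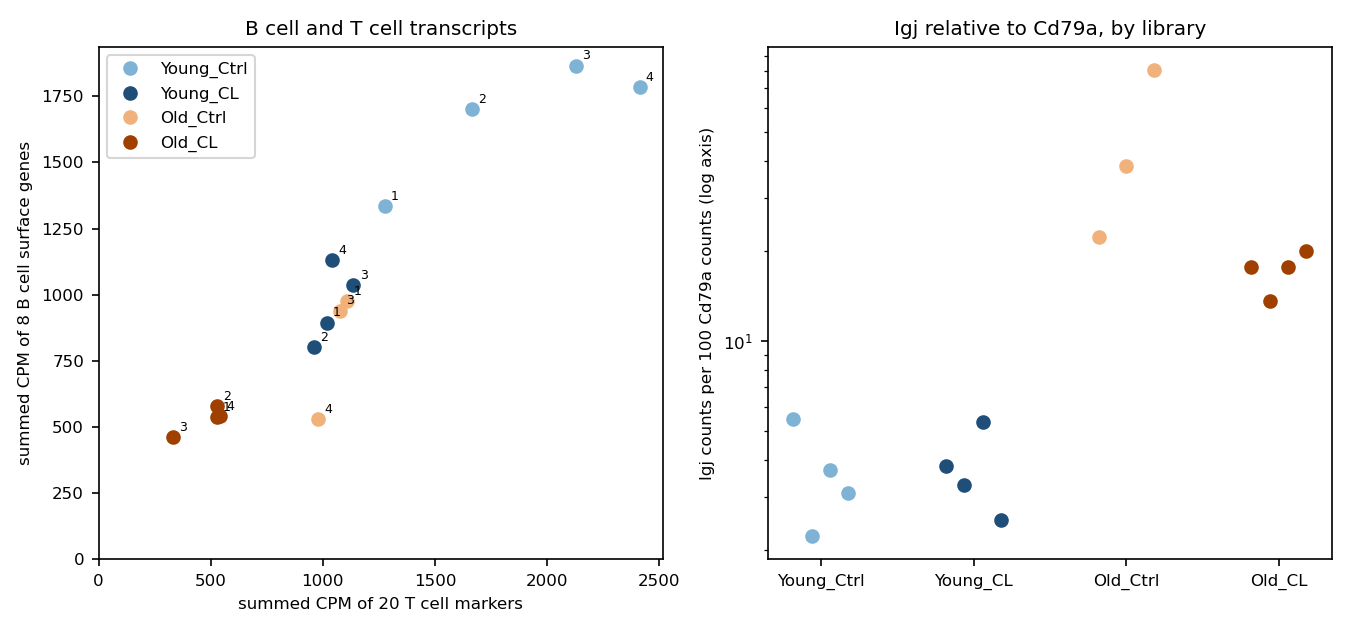
Left, summed CPM of the 8 B cell surface genes against the summed CPM of 20 T cell markers, 1 point per library with its replicate number; right, Igj counts per 100 Cd79a counts per library on a log axis. B and T cell transcripts are both highest in Young_Ctrl and lowest in Old_CL, Old_Ctrl 4 lies below its group in B cell genes, and the Igj ratio separates the ages.

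Mzb1, an endoplasmic reticulum chaperone of marginal zone B cells and plasma cells, fell in all 4 comparisons, with CL like Igj and with age where Igj rose. It was at 18.7, 24.4, 27.1 and 30.2 CPM in Young_Ctrl, 15.1, 12.8, 16.9 and 14.5 in Young_CL, 12.5, 15.4 and 10.8 in Old_Ctrl, and 7.49, 8.02, 7.08 and 7.89 in Old_CL. All 4 comparisons separated the libraries without overlap. The changes were -0.78 and -0.77 with CL and -0.96 and -0.95 with age, with edgeR adjusted p from 2.18e-04 to 0.00127.

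Tnfrsf17, the plasma cell survival receptor BCMA, was the member whose CL effect differed between the ages in the test of the difference itself. It rested on few reads, 4 to 58 counts per library. Levels were 0.526, 0.688, 0.234 and 0.779 CPM in Young_Ctrl, 0.983, 1.05, 1.33 and 0.566 in Young_CL, 1.15, 1.04 and 1.38 in Old_Ctrl, and 0.642, 0.313, 0.588 and 0.556 in Old_CL. Young_CL 4 lay within the Young_Ctrl range, and the aged groups did not overlap.

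CL changed Tnfrsf17 by 0.79 ± 0.36 at 2 months (edgeR adjusted p = 0.0914) and by -1.16 ± 0.35 at 12 months (edgeR adjusted p = 0.0141). The difference was -1.94 ± 0.50 (edgeR adjusted p = 0.0315), and 3.77% of all genes were lower and 3.31% higher by this test; 0 members were higher at an adjusted p under 0.05, against 2 at an unadjusted p under 0.05, 0 by limma-voom and 1 by DESeq2. The call ended in 12 of 24 alternative fits, 9 of which left out 1 library each (Young_Ctrl 3, Young_CL 1, 2 or 3, Old_Ctrl 1 or 4, Old_CL 1, 2 or 4; edgeR adjusted p from 0.0504 to 0.0877). Without Young_CL 4 the rise at 2 months passed the test, at 0.96 (edgeR adjusted p = 0.0447). The rise with age under vehicle, 1.09 ± 0.37 (edgeR adjusted p = 0.0383), ended without Young_Ctrl 3 (0.125), Old_Ctrl 1 (0.0606) or Old_Ctrl 4 (0.145). The fall with CL at 12 months ended without Old_Ctrl 4 (edgeR adjusted p = 0.0592) and with Old_CL 1, 2 and 4 summed (0.054). With age under CL Tnfrsf17 changed by -0.85 ± 0.35 (edgeR adjusted p = 0.0607), which passed without Young_CL 4 (0.029).

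Sdc1, which encodes the plasma cell surface proteoglycan CD138 and is also made by epithelial cells and some macrophages, was at 10.05 to 14.96 CPM in the 8 young libraries. Old_Ctrl 1, 3 and 4 were at 49.0, 16.9 and 60.6, and Old_CL at 25.3, 24.7, 35.4 and 23.1. Aged and young libraries did not overlap, and Old_Ctrl 3 stood below the other 2 of its group. With age Sdc1 rose by 1.77 ± 0.32 under vehicle (edgeR adjusted p = 0.00195) and by 1.22 ± 0.30 under CL (edgeR adjusted p = 0.00483). With CL at 12 months it changed by -0.62 ± 0.30 (edgeR adjusted p = 0.108), and by -1.01 (edgeR adjusted p = 7.59e-04) without Old_Ctrl 3.

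Macrophage markers were higher with age under vehicle, as Sdc1 was, with a median log2 change of 1.09. Under CL their median change with age was 0.26. Of 13, 10 rose with age under vehicle and 4 under CL, and 9 fell with CL at 12 months. Their summed level was 4839, 2513 and 4547 CPM in Old_Ctrl 1, 3 and 4, from 1748 to 2603 in Old_CL with the highest in Old_CL 3, and 985 to 2145 in the young libraries. None of the 13 was at 0 in any library. Epithelial markers summed to 9.97 to 26.9 CPM, highest in Old_Ctrl 4; Krt14 and Krt5 were at 0 in all Young_Ctrl libraries and Wap in all libraries of the other 3 groups. Of the 5 epithelial markers tested of 12 listed, 2 rose with age under vehicle, and with CL 1 rose and 1 fell at 2 months and 1 rose and 2 fell at 12 months. The part of these cells in the values of Sdc1 was not tested.

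Prdm1, the transcription factor that drives plasma cell differentiation, fell with CL by 0.98 and 0.70 at 2 and 12 months and did not pass the test with age, at -0.07 and 0.21. It had 14 to 314 counts per library, and the call at 12 months ended without Old_Ctrl 4 (edgeR adjusted p = 0.0546). That call also ended with Old_CL 1, 2 and 4 summed (edgeR adjusted p = 0.054) and without the 5 libraries high in muscle markers. Derl3, a gene of protein disposal in the endoplasmic reticulum, stood at 0.878 to 2.83 CPM and, over all 15 libraries, passed the test only with CL at 12 months, with a change of -0.87 ± 0.32 (edgeR adjusted p = 0.04). That call ended without Old_Ctrl 1, 3 or 4 or Old_CL 1, 2 or 4 (edgeR adjusted p from 0.0522 to 0.166). It also ended with the replicate block (edgeR adjusted p = 0.095) and with Old_CL 1, 2 and 4 summed (0.15).

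Of 14 further secretory genes that plasma cells express highly but every secreting cell uses, 5 rose with age under vehicle, while 8 fell and 1 rose with CL at 12 months. Creld2 and Sdf2l1, 2 endoplasmic reticulum stress genes, rose with age under vehicle by 0.68 and 0.73, and changed by -0.47 and -0.53 with CL at 12 months. Since adipocytes and stromal cells also express this list, its values are not specific to plasma cells.

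Of the node vessel and follicle genes, the 3 tested were vessel genes, and no follicle gene was tested. All 3 were lower with age in both treatments, of which 2 passed the test under vehicle and 3 under CL. With CL 0 passed at 2 months and 1 at 12 months. Glycam1, a mucin of high endothelial vessels that carries the ligand of L-selectin, was at 68.4, 75.6, 53.2 and 58.0 CPM in Young_Ctrl and at 51.0, 52.4, 53.9 and 63.6 in Young_CL. In Old_Ctrl it was at 15.9, 12.0 and 13.1, and in Old_CL at 14.6, 17.8, 16.1 and 14.8. All 8 young libraries lay far above all 7 aged libraries, while treatments overlapped at both ages.

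With age Glycam1 fell by 2.25 ± 0.14 under vehicle, 4.74-fold (edgeR adjusted p = 6.16e-07), and by 1.80 ± 0.12 under CL, 3.48-fold (edgeR adjusted p = 1.55e-07). Both calls held in all alternative fits run, 17 and 18. CL changed it by -0.21 ± 0.12 at 2 months (edgeR adjusted p = 0.163, 95% interval from -0.47 to 0.05) and by 0.24 ± 0.14 at 12 months (edgeR adjusted p = 0.16, 95% interval from -0.06 to 0.54). At 2 months Cd79a changed by -0.75 on the same scale, with a 95% interval from -1.13 to -0.36 that overlaps the one of Glycam1. The difference between the 2 genes was not tested. Which cells of the pad made Glycam1 was not tested either.

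Madcam1, a ligand of the lymphocyte integrin alpha4 beta7 and a known target of lymphotoxin signalling, was low, at 11 to 137 counts per library. Levels were 3.03, 6.103, 3.51 and 3.51 CPM in Young_Ctrl, 2.74, 2.37, 3.65 and 3.64 in Young_CL, 3.31, 2.46 and 2.51 in Old_Ctrl, and 1.21, 1.003, 0.794 and 0.612 in Old_CL. The other 3 groups overlapped, and all Old_CL libraries lay below them. With CL at 12 months it fell by 1.59 ± 0.29, 3.01-fold (edgeR adjusted p = 5.1e-04), and with age under CL by 1.76 ± 0.27 (edgeR adjusted p = 2.03e-04). Its changes with CL at 2 months, -0.41 ± 0.25, and with age under vehicle, -0.59 ± 0.27, did not pass the test. The difference of the CL effects between ages was -1.18 ± 0.38 (edgeR adjusted p = 0.0728), and it passed without Young_Ctrl 2 (-1.44, edgeR adjusted p = 0.0305) and by DESeq2 (0.0409).

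Chst4, the sulfotransferase that completes the L-selectin ligand, was at 3.39 to 4.90 CPM in Young_Ctrl, 2.14 to 3.07 in Young_CL, 1.66 to 2.45 in Old_Ctrl and 1.12 to 1.89 in Old_CL. It fell with age by 0.94 ± 0.24 and 0.86 ± 0.23, the first of which ended without Old_Ctrl 4 (edgeR adjusted p = 0.0735). With CL its changes were -0.53 and -0.45 (edgeR adjusted p = 0.0644 and 0.146). The first passed under upper-quartile scaling (edgeR adjusted p = 0.034) and by limma-voom (adjusted p = 0.039). Of 15 further vessel and stroma genes of nodes, which vessels and stroma of fat also express, 1 fell and 5 rose with age under vehicle, and 6 fell and 5 rose under CL. With CL, 5 fell at 2 months, and 8 fell and 3 rose at 12 months. Mfge8, a bridging protein of follicular dendritic cells that adipose stroma also makes, rose with age by 0.73 and 1.97.

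T cell markers moved beside the B cell genes. All 20 fell with CL at both ages and with age under CL, and 18 fell with age under vehicle. Their medians were -0.90 and -1.15 with CL and -0.89 and -1.12 with age. Summed T cell markers were at 1277, 1666, 2129 and 2413 CPM in Young_Ctrl, 959 to 1136 in Young_CL, 980.2 to 1109 in Old_Ctrl and 329.8 to 539.6 in Old_CL. Young_Ctrl 1 was the lowest of its group both for these markers and for the 8 B cell surface genes, at 1335 CPM against 1703 to 1866, and the highest for adipocyte markers, at 40039 against 17788 to 24411. Dendritic cell markers fell for 5 and 6 of 9 with CL, and 3 and 6 with age, and plasmacytoid dendritic cell markers for 6 and 6 of 8 with CL and 3 and 5 with age. In bulk tissue fewer cells of a type and less RNA per cell cannot be told apart, and neither can B cells of the fat from those of a node.

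Muscle transcripts were high in 3 of the 4 Young_CL libraries and in no Young_Ctrl library; of 15 muscle markers 1 rose with CL at each age and 1 with age under CL. Without the 5 libraries rich in them, Young_CL 4 alone stood for its group and was assumed to vary like the others, so changes are given here. With CL at 2 months 28 of 30 changes were negative, with a median of -0.56 against -0.10 for all genes. Most of the calls at 2 months ended in this fit. At 12 months the median member changed by -0.55 with CL, against 0.01 for all genes, and fewer members fell. With age under CL the median member changed by -1.04, against -0.01 for all genes, and fewer members fell. There the calls of Cd79b, Ms4a1, Cd22, Cd37, Btk, Bank1, Ltb and Chst4 ended, and Derl3 changed by -1.29. The part of muscle in the members' values was not tested otherwise. Under upper-quartile scaling, which moved the median of all genes to -0.15 with CL at 2 months, 2839 genes rose and 4491 fell against 3323 and 3383 under TMM, and 25 members fell.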

How the data were processed

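PolyA RNA of inguinal adipose tissue was extracted with Trizol and a PureLink kit and made into libraries with a TruSeq kit, per the labels' protocols. The authors deposited 1 table of whole-number counts for 24015 genes in 15 libraries; per the submitters' processing notes STAR, featureCounts and Subread were used with build mm9, with no versions given. Whether counting used strand is not given in the sources used here. Totals ran from 6115542 to 51577001 counts, at which 3 counts are worth 0.0538 to 0.497 CPM. No mm9 coordinates are printed.

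From these counts, genes were kept by filterByExpr by group (15288 genes) and scaled by TMM, and 1 mean per group was fitted over all 15 libraries with the robust quasi-likelihood test of edgeR 4.0.16 (limma 3.58.1, R 4.3.3). Benjamini-Hochberg adjustment was over all 15288 genes. SEs were derived from each log2 change and its F statistic, and 95% intervals use 11 residual degrees of freedom. Levels are CPM from TMM-scaled totals, not corrected for gene length, so they are not compared between genes. The scripts were tested on simulated data.

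The 31 members and the 12 other lists were chosen with earlier results of these data known. All members are reported; of other lists, counts and at most 4 genes with the smallest p per comparison are named. A withheld gene is not reported here. The alternatives tried were RLE and upper-quartile scaling, no and a stricter low-count filter, limma-voom, DESeq2 1.42.0, each group pair alone, a replicate block, Old_CL 1, 2 and 4 summed, no muscle-rich libraries, and each library left out.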

Additional observations from a re-analysis of the deposited data

Results flagged for a closer look

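Of 90 member groups of 4 libraries, 7 held a library whose gap to the nearest other exceeded the limit of Dixon's test; chance flags about 1 in 20 such groups. Young_Ctrl 1 stood below its group for Cd79a (215 CPM, the next at 260.4), Cd79b (200.5 CPM, the next at 256) and Cd37 (185 CPM, the next at 243). Old_CL 3 was lowest for Blk (17.0 CPM, the next at 22.1) and Young_CL 3 for Prdm1 (2.32 CPM, the next at 3.07). Young_CL 4 was highest for Ebf1 (90.2 CPM, the next at 79.2) and Young_Ctrl 2 for Madcam1 (6.103 CPM, the next at 3.51).

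Tnfrsf17 was the member whose CL effect differed between ages in the test of the difference, at -1.94 on the log2 scale (edgeR adjusted p = 0.0315). The call ended in 12 of 24 alternative fits, and 1 call among 30 members is no larger a share than the 3.77% of all genes lower by this test.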

How the results depend on the processing

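In 52 of 124 combinations of member and comparison every alternative kept the direction and the side of the threshold, and none of the 98 called changes reversed. Without the 5 muscle-rich libraries members lower with CL numbered 1 at 2 months and 11 at 12 months, and those lower with age under CL 15; with CL there were 14 at 12 months with Old_CL 1, 2 and 4 summed. Members higher with age under vehicle numbered 2 with no filter, in the 2 groups alone, with the replicate block, with Old_CL summed and without muscle-rich libraries. Interaction calls were 1 higher and 3 lower by DESeq2 and 0 lower with Old_CL summed or without muscle-rich libraries. Leaving out 1 library gave 21 to 24 members lower and 0 to 1 higher with CL at 2 months, and 14 to 23 lower at 12 months. Of all genes, 2574 to 3853 were lower and 2810 to 3756 higher at 2 months, and 2711 to 2975 lower at 12 months. With age 18 to 22 members were lower and 2 to 4 higher under vehicle, and 22 to 23 lower and 3 higher under CL. All genes gave 654 to 2510 lower and 1085 to 3341 higher under vehicle. Under CL they gave 2330 to 2968 lower and 2519 to 3095 higher. The interaction held 0 to 1 members higher and 0 to 2 lower, and 221 to 908 of all genes higher and 210 to 1162 lower.

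Uncalled changes that reversed were those of Derl3 with CL at 2 months (0.75 without muscle-rich libraries, and from -0.62 to 0.083 with 1 library left out, positive without Young_CL 1 or 2) and with age under CL (0.018 by limma-voom, and from -0.45 to 0.26 with 1 library left out, positive without Young_CL 4; -1.29 and called without muscle-rich libraries). Sdc1 with CL at 2 months ran from -0.16 to 0.044 with 1 library left out (positive without Young_Ctrl 1 or 2), and Prdm1 with age under vehicle from -0.23 to 0.030 (positive without Young_Ctrl 1, Young_Ctrl 4 or Old_Ctrl 1). Ebf1 with CL at 12 months became -0.0081 under RLE, -0.063 under upper-quartile scaling, -0.0092 by DESeq2, -0.019 in 2 groups alone and -0.025 with Old_CL summed, and ran from -0.023 to 0.061 with 1 library left out (negative without Old_Ctrl 4 or Old_CL 4). The cause of these shifts was not tested.

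Correlations of the deviations of same-numbered libraries ran from -0.24 to 0.34. Some pairs deviated together, as numbers 3 and 4 did between Old_Ctrl and Old_CL (0.33 and 0.20). In no comparison did every pair exceed 0.1, a limit chosen here, so the numbers were not taken as pairs. The replicate block fits an effect per number shared by both ages, so it does not test pairs within an age. With the replicate block 23, 18, 21 and 22 members fell with CL at 2 and 12 months and with age under vehicle and CL, and 0, 0, 2 and 3 rose. Of all genes, 2995, 2954, 1565 and 2673 fell and 3191, 3181, 2043 and 2921 rose in the same order. The interaction held 0 members lower and 346 of all genes. Tnfrsf17, Derl3, Madcam1 and Chst4 rest on few counts, which limits their precision.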
